A study of Mus musculus with 24 samples.

Results

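The enzymes described here are the phase II conjugating enzymes of mouse liver: the UDP-glucuronosyltransferases (Ugt1, Ugt2 and Ugt3 genes), the cytosolic sulfotransferases (Sult1 to Sult6 genes) and the glutathione transferases (alpha, kappa, mu, omega, pi, theta and zeta classes and the microsomal Mgst genes). They were taken from the count table by gene symbol, and a gene became a member when it had at least 20 counts in at least 3 of the 24 libraries. Of the 23411 symbols in the table, 62 had such a name and 42 passed the count rule. These are 15 of 20 glucuronidation genes (all Ugt genes, those of the Ugt3a family included), 6 of 18 sulfation genes and 21 of 24 glutathione genes. The lowest counts among members were those of Sult2a7, with at least 20 counts in 19 libraries (12 α7HMZ and 7 WT), and Gsta1, in 23 libraries. Just outside the rule were Ugt1a7c, with 20 counts or more in 2 libraries (both α7HMZ), Ugt1a10 in 1 (WT) and Sult1e1 in 1 (α7HMZ). The other 17 symbols that were left out reached 20 counts in no library, and 4 of these had no count at all.

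Livers of α7HMZ mice, in which an exon swap leaves only the P2 form of the nuclear receptor HNF4α, were compared with livers of WT mice, whose adult liver makes the P1 form, to ask how the P2 form changes the adult liver. All mice were males of a mixed 129/Sv plus C57BL/6 background, 16 to 20 weeks old. Fed α7HMZ mice and fed WT mice had LabDiet chow ad libitum and were killed at 10:30, 13:30 or 20:30, and a fasted group of each genotype went without food for 12 h and was killed at 10:30. There were 8 groups of 3 mice, harvested one after the other at a given time, and a poly(A) library was made from a piece of each liver (24 libraries in all). The HNF4α form is set by the genotype of the animal, so effects that arose outside the liver or during development are part of the comparison. Fed mice of both genotypes at 10:30 shared a flow cell with the fasted WT mice, and the remaining groups were sequenced on a second one. Fed genotype comparisons and WT fasting therefore lie within a flow cell. Fasting in α7HMZ livers and genotype in fasted livers are split across the flow cells, and the flow cell and the condition cannot be told apart there. Levels at 10:30 and at the later fed times also lie on different flow cells, so time and flow cell cannot be told apart between them.

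Conjugation makes lipophilic compounds water soluble so that bile and urine can carry them off. UDP-glucuronosyltransferases sit in the endoplasmic reticulum and move glucuronic acid from UDP-glucuronic acid to bilirubin, steroids, bile acids and many drugs, while sulfotransferases work in the cytosol with the sulfate donor PAPS on phenols, steroids and amines. Glutathione transferases join glutathione to electrophiles or use it to reduce peroxides, and many genes of all 3 reactions are known targets of the xenobiotic receptors CAR, PXR, AHR and PPARα and of the stress factor NRF2.

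The 250 bases before the start site of the members were read from the RefSeq promoter table (build GRCm38.p6), which held 37 of the 42. The letters searched, on both strands, were AAGTCCA, a core of the HNF4α response element, and TGACNNNGC, the core of the antioxidant response element that NRF2 binds. AAGTCCA stood in 1 of the 37 promoters (2.70%), that of Sult1b1, against 3.32% of 27025 RefSeq promoters of the same length. TGACNNNGC stood in 3 (8.11%), those of Gsta3, Gstm5 and Mgst1, against 10.1% of all. A match is a string of letters and does not show that a factor binds there, and no match says only that these letters are not in the window. Whether a match goes with a fall was not tested. The promoter of Gstm5, which did not pass in the fed average, is not printed. The promoters of 3 genes with a match are printed 5′ to 3′ with the match in capitals: Sult1b1, the member that fell the most in fed α7HMZ livers, Mgst1, which also fell there, and Gsta3, which fell in fasted livers of both genotypes. They are Sult1b1 (chr5:87538196-87538445, minus strand), whose match begins 74 bases before the start site and reads AAGTCCA on the other strand, Mgst1 (chr6:138140277-138140526, plus strand), whose match begins at base -56 and reads TGACNNNGC on the other strand, and Gsta3 (chr1:21240335-21240584, plus strand), with TGACNNNGC at base -121.
Sult1b1: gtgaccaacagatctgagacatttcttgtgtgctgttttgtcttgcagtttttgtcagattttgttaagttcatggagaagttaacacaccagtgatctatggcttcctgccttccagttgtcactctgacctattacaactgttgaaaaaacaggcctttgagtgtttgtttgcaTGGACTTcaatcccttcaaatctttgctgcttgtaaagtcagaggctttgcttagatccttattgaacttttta
Mgst1: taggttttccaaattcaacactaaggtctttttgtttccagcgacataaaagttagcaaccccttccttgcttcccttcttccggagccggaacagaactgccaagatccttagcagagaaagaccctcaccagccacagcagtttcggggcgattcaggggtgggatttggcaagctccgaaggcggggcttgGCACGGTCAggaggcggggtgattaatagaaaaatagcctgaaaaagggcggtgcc
Gsta3: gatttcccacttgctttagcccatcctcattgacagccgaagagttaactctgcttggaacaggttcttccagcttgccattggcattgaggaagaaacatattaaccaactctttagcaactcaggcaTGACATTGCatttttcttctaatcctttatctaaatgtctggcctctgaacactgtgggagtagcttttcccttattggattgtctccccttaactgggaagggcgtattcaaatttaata

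Total counts ranged from 8545959 to 28445590 per library. In α7HMZ replicate 1 at 10:30, 50.8% of the counts fell on the ribosomal precursor Rn45s (median of all libraries 0.162%), and without that library 7 members rose and 14 fell at 10:30. Hepatocyte markers summed to between 86494 and 130231 CPM (counts scaled to library size by TMM factors and expressed per 1e6) in fed α7HMZ livers and between 94839 and 162475 CPM in fed WT livers, so the tissue is liver as labelled. Hnf4a was counted over the whole gene, and its count does not separate the P1 from the P2 form. Together the glucuronidation members took between 0.324% and 0.478% of the counts of a library without Rn45s, the sulfation members between 0.0135% and 0.0682% and the glutathione members between 0.655% and 1.39%. In whole liver, fewer cells of a type and less RNA per cell cannot be told apart. All p-values are from edgeR's quasi-likelihood test with Benjamini-Hochberg adjustment over all genes tested, and with 3 mice a group they measure the spread between these mice.

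In fed livers, many conjugating enzyme genes were lower in α7HMZ than in WT, and the largest differences were in the sulfotransferases and in the Ugt3a and Ugt1a genes. Averaged over the 3 times, 8 members rose and 18 fell at an adjusted p under 0.05, and 16 did not pass. Among all 13334 genes tested, 13.3% rose and 13.2% fell (26.5% in either direction), so that 50.2% of the calls were higher (60.2% with upper quartile factors in place of TMM). The median log2 fold change of the members was -0.13, against 0.03 over all genes. With the scaling that the study's methods describe (offsets for GC content and full quantiles) put into the same test, 13 members rose and 16 fell. Over all genes 2116 then rose and 1624 fell, so that 56.6% of the calls were higher. By reaction, 2 of 15 glucuronidation genes rose and 6 fell (both Ugt3a genes among the 6), 1 of 6 sulfation genes rose and 3 fell, and 5 of 21 glutathione genes rose and 9 fell. Alas2, the heme synthesis enzyme of red cells, carried an erythroid marker sum (5 of 7 listed genes in the table) of 53.2 to 83.6 CPM in fed α7HMZ livers and 143 to 195 CPM in fed WT livers, while the hemoglobin genes of that list were at or near 0. Hepatocyte markers summed to 101664 to 122982 CPM in α7HMZ and 126912 to 156713 CPM in WT livers at 10:30 and to 104946 to 130231 CPM in α7HMZ and 132688 to 162475 CPM in WT livers at 20:30, with no overlap, and the groups overlapped at 13:30. Alb made up most of these sums. Cps1 was higher at 20:30, with 4383 to 5295 CPM in α7HMZ and 3263 to 3829 CPM in WT livers. The means of the other listed hepatocyte genes were lower there. Bile duct cell markers were higher without overlap at each time, with 58.7 to 71.5 CPM in α7HMZ and 47.7 to 56.3 CPM in WT livers at 10:30, 49.7 to 66.0 CPM in α7HMZ and 36.8 to 41.9 CPM in WT livers at 13:30, and 71.7 to 92.2 CPM in α7HMZ and 41.9 to 71.1 CPM in WT livers at 20:30. At 10:30 sinusoidal endothelial markers (274 to 357 CPM in α7HMZ, 374 to 452 CPM in WT) and stellate cell markers (193 to 264 CPM in α7HMZ, 281 to 365 CPM in WT) were lower, as were pancreas acinar markers at 20:30 (18.4 to 24.7 CPM in α7HMZ, 28.7 to 51.9 CPM in WT). The part of these cell types in the fed results was not tested.

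**Figure D1:**
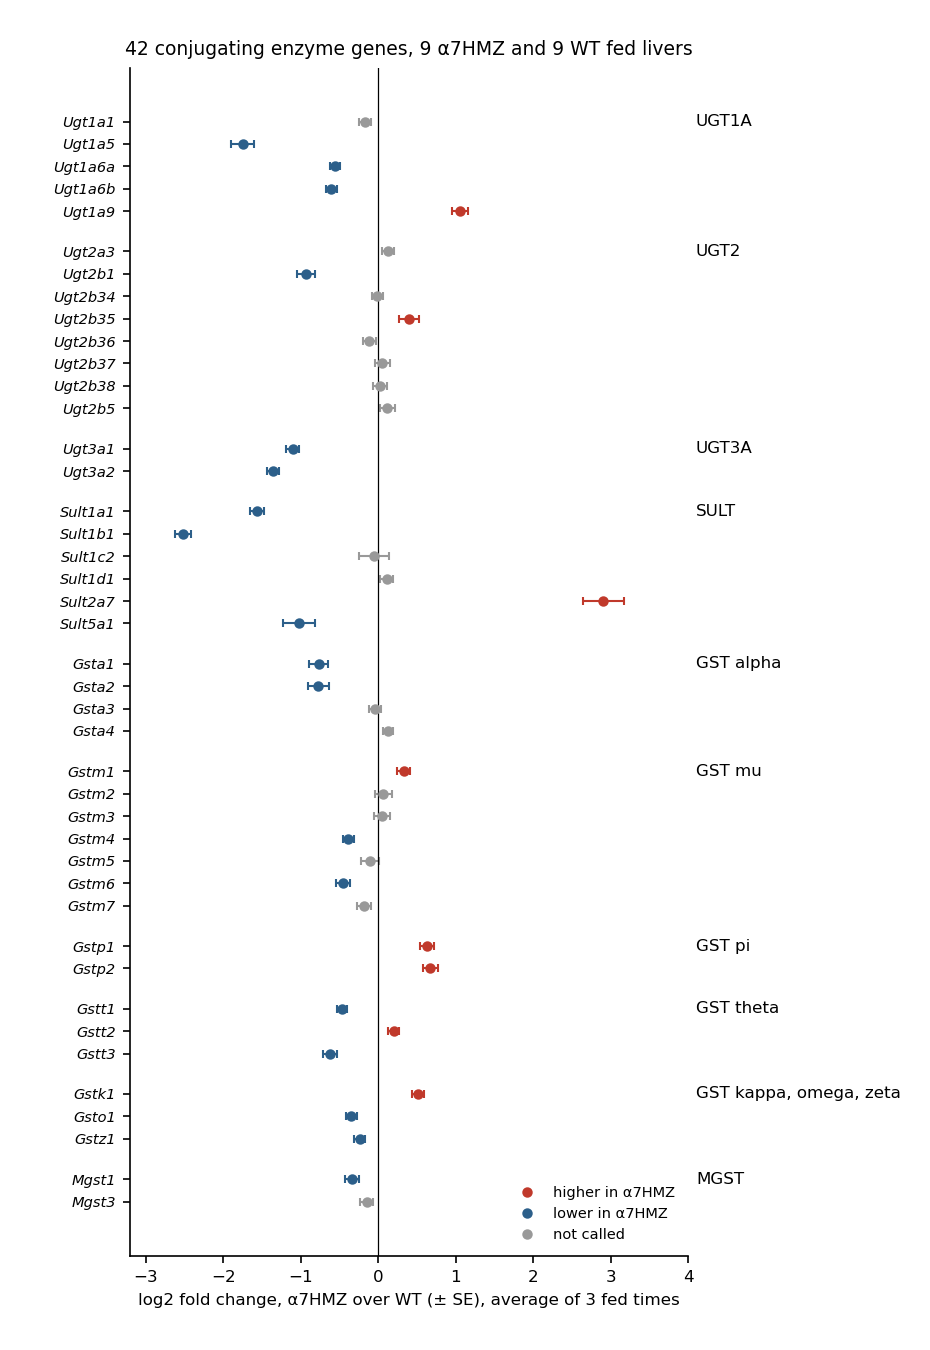
The log2 fold change of α7HMZ over WT livers, averaged over the 3 fed times, is plotted on the x axis for each of the 42 members, ordered by family down the page. Points are edgeR estimates with their SE, red for the 8 genes that rose, blue for the 18 that fell and grey for the 16 that did not pass, and they run from -2.52 for Sult1b1 to 2.90 for Sult2a7.

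The single times gave fewer calls each. At 10:30, 6 members rose and 15 fell, against 8.36% and 8.98% of all genes (17.3% in either direction). At 13:30, 6 rose and 14 fell, against 6.19% and 6.61% (12.8% in all). At 20:30, 2 rose and 14 fell, against 8.29% and 10.8% (19.1% in all). With the study's scaling 8 rose and 13 fell at 10:30, 10 rose and 10 fell at 13:30, and 9 rose and 11 fell at 20:30. At all 3 times 10 members fell: Sult1a1, Sult1b1, Ugt1a5, Ugt1a6b, Ugt2b1, Ugt3a1, Ugt3a2, Gstm4, Gstt1 and Gstt3. Sult2a7 and Ugt1a9 rose at all 3, and no member rose at a time and fell at another. The share of all genes called at all 3 times was not computed, so these counts cannot be read against it. The counts depended on single livers. At 10:30, 9 members fell without WT replicate 3. At 13:30, 7 fell without WT replicate 1, 7 without α7HMZ replicate 1 and 9 without α7HMZ replicate 3. At 20:30, 5 rose and 9 fell without WT replicate 3. Among these livers the bile duct marker Krt19 stood at 14.3 CPM in the first α7HMZ mouse, at 12.5 CPM in the third and at 18.3 CPM in WT replicate 2, while no other fed liver exceeded 4.32 CPM. Its part in the result was not tested, and without these 3 livers and the one with the most Rn45s, 8 members fell at 20:30.

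For 9 members the 9 fed α7HMZ livers and the 9 fed WT livers did not overlap, 2 of them higher in α7HMZ and 7 lower. Such separation was found upwards for 1.15% and downwards for 2.41% of the genes in the fit. All 9 differences kept their direction and stayed under an adjusted p of 0.05 in each of 26 other settings. Of the 9, 3 are sulfotransferases, 5 are Ugt genes (both Ugt3a genes among them) and 1 is a glutathione transferase.

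**Figure D2:**
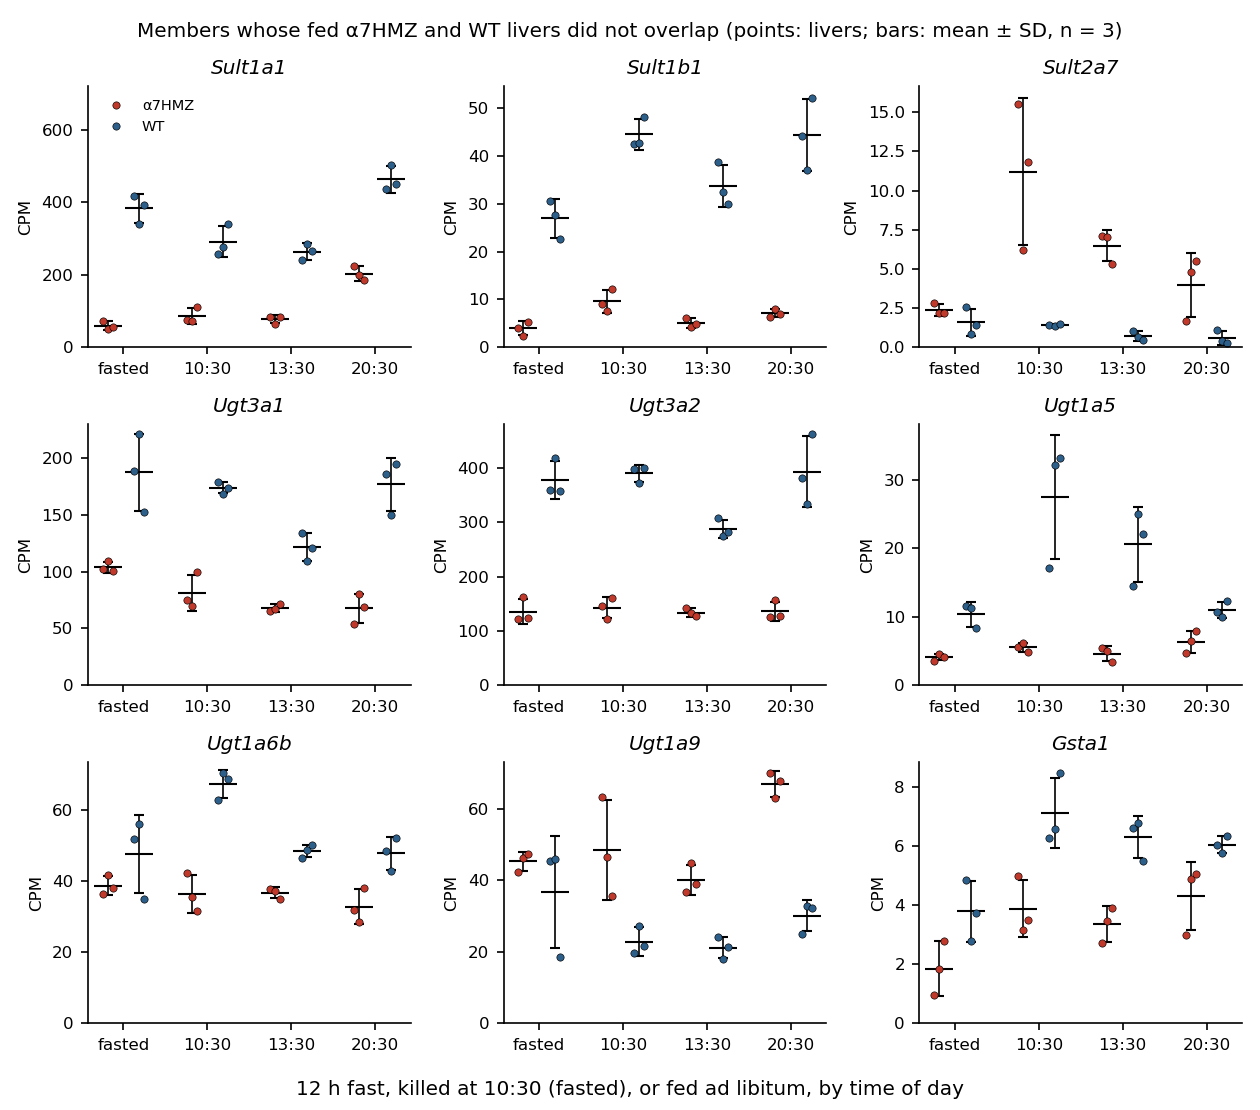
CPM in each liver are plotted on the y axis for the 9 members whose fed α7HMZ (red) and WT (blue) livers did not overlap, with the fasted groups on the left and the fed groups by time of day. Bars are the mean and SD of 3 livers. Sult1a1 has 65.2 to 225 CPM (median 84.3) in fed α7HMZ livers, under every fed WT liver, and Sult2a7 and Ugt1a9 are the 2 genes whose fed α7HMZ livers lie above.

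Glucuronidation begins with the Ugt1a locus, a single stretch of chromosome 1 where each gene has a first exon of its own and all share the remaining exons. Reads in the shared exons cannot be placed in 1 gene. The share of 75-base windows of the transcript found in no other gene was 42.3% for Ugt1a1, 40.6% for Ugt1a9, 36.4% for Ugt1a5, 24.6% for Ugt1a6b and 0% for Ugt1a6a, so single values within this locus are uncertain. Coordinates are those of GENCODE on GRCm38, the assembly also known as mm10. Ugt1a9 (chr1:88070800-88218997, plus strand), whose human counterpart glucuronidates phenols such as propofol, rose, with 35.8 to 70.0 CPM (median 46.5) in fed α7HMZ livers and 18.1 to 32.8 CPM (median 24.1) in fed WT livers. Its log2 fold change was 1.06 ± 0.11 (SE, adjusted p = 3.74e-07, edgeR). The lowest α7HMZ liver was above the highest WT liver, and the difference was 1.09 (SE 0.18) at 10:30, 0.92 (SE 0.18) at 13:30 and 1.16 (SE 0.18) at 20:30.

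A further 3 genes of the locus fell. Ugt1a5 (chr1:88166012-88218997, plus strand) had 3.39 to 7.87 CPM (median 5.41) in fed α7HMZ livers and 10.0 to 33.2 CPM (median 17.1) in fed WT livers, a log2 fold change of -1.75 ± 0.15 (SE, adjusted p = 6.23e-08, edgeR). Ugt1a6b (chr1:88103252-88219003, plus strand) had 28.5 to 42.2 CPM (median 35.4) in α7HMZ and 42.9 to 70.3 CPM (median 50.0) in WT, a log2 fold change of -0.61 ± 0.07 (SE, adjusted p = 2.56e-06, edgeR). Its near-identical neighbour Ugt1a6a (chr1:88134809-88218997, plus strand) had 34.4 to 47.7 CPM (median 39.7) in α7HMZ and 45.6 to 75.3 CPM (median 55.1) in WT, a log2 fold change of -0.56 ± 0.07 (SE, adjusted p = 3.63e-06, edgeR), and its groups overlapped. The Ugt1a6 enzymes act on small planar phenols. Ugt1a1, the bilirubin glucuronosyltransferase, did not pass in the average (log2 difference -0.17 ± 0.08 SE, edgeR adjusted p = 0.122). At 10:30 alone it fell, with a mean of 185 ± 22.8 CPM in the α7HMZ mice against 255 ± 23.0 CPM in the WT mice (± SD, n = 3 each), a log2 fold change of -0.46 ± 0.13 (SE, adjusted p = 0.0255, edgeR).

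The 8 Ugt2 members, enzymes of steroid, bile acid and opioid glucuronidation, had a median log2 fold change of 0.04, and 6 of them did not pass. Ugt2b1 (chr5:86916638-86926530, minus strand) fell, with 322 to 678 CPM (median 416) in fed α7HMZ livers and 578 to 1410.4 CPM (median 835) in fed WT livers, a log2 fold change of -0.94 ± 0.12 (SE, adjusted p = 5.67e-06, edgeR). Its groups overlapped over the day as a whole but at none of the 3 times. Ugt2b35 rose by the test (log2 difference 0.40 ± 0.13 SE, edgeR adjusted p = 0.0259), with 163 to 321 CPM (median 186) in α7HMZ livers and 104 to 211 CPM (median 159.8) in WT livers, which overlapped widely. The other Ugt2 genes lay between -0.11 (SE 0.08) for Ugt2b36 and 0.12 (SE 0.08) for Ugt2a3.

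Both Ugt3a genes fell. They lie side by side on chromosome 15, and their human counterparts use sugars other than glucuronic acid. Ugt3a2 (chr15:9335550-9370955, plus strand) had 122 to 160.0 CPM (median 132) in fed α7HMZ livers and 275 to 463 CPM (median 372) in fed WT livers, a log2 fold change of -1.36 ± 0.07 (SE, adjusted p = 8.59e-11, edgeR). Ugt3a1 (chr15:9276888-9315032, plus strand) had 54.2 to 99.5 CPM (median 69.5) in α7HMZ and 109 to 194 CPM (median 168) in WT, a log2 fold change of -1.10 ± 0.08 (SE, adjusted p = 1.11e-08, edgeR). Neither pair of groups overlapped. Ugt3a2 had 143 ± 19.4, 134 ± 8.29 and 136 ± 17.6 CPM in α7HMZ livers at 10:30, 13:30 and 20:30 (mean ± SD, n = 3 each), where WT livers had 389 ± 15.5, 288 ± 16.8 and 392.4 ± 65.3 CPM.

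Of the 6 sulfotransferases, Sult1b1 fell the most. Sult1b1 (chr5:87513339-87538195, minus strand) sulfates thyroid hormones and simple phenols. At 10:30 it had 9.09, 7.54 and 12.1 CPM in α7HMZ livers, against 42.5, 42.7 and 48.1 CPM in WT livers. At 13:30 the values were 6.14, 4.22 and 4.94 CPM in α7HMZ and 38.6, 32.3 and 30.0 CPM in WT, and at 20:30 they were 6.31, 8.07 and 7.03 CPM in α7HMZ and 44.0, 37.0 and 52.0 CPM in WT. The highest α7HMZ liver, at 10:30, was under the lowest WT liver, at 13:30. The log2 fold change was -2.52 ± 0.10 (SE, adjusted p = 1.61e-12, edgeR) in the average, and -2.19 (SE 0.18), -2.72 (SE 0.18) and -2.65 (SE 0.18) at 10:30, 13:30 and 20:30.

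Sult1a1 (chr7:126672865-126676432, minus strand), the main phenol sulfotransferase, had 75.2, 72.1 and 111 CPM in α7HMZ livers at 10:30 and 257, 277 and 339.8 CPM in WT livers. At 13:30 it had 82.9, 65.2 and 84.3 CPM in α7HMZ and 239.8, 286 and 266 CPM in WT, and at 20:30 225, 201 and 185 CPM in α7HMZ and 435, 504 and 449 CPM in WT. All α7HMZ livers were lower, and livers of both genotypes were highest at 20:30. The log2 fold change was -1.57 ± 0.09 (SE, adjusted p = 2.51e-10, edgeR).

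Sult2a7 (chr7:14465051-14494230, minus strand) belongs to the Sult2a genes, whose enzymes sulfate hydroxysteroids and bile acids, and it is the member with the largest rise. At 10:30 it had 15.6, 6.24 and 11.8 CPM in α7HMZ livers, against 1.41, 1.35 and 1.46 CPM in WT livers. Values at 13:30 were 7.08, 7.05 and 5.35 CPM in α7HMZ and 1.06, 0.675 and 0.458 CPM in WT, and those at 20:30 were 1.67, 4.82 and 5.51 CPM in α7HMZ and 1.09, 0.385 and 0.258 CPM in WT. The α7HMZ livers spread widely, fed WT livers had 1.46 CPM at most, and the groups did not overlap. Its log2 fold change was 2.90 ± 0.27 (SE, adjusted p = 1.35e-07, edgeR). The other 6 Sult2a symbols of the table had at most 2 counts in any library.

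Sult5a1, whose substrates are not well known, fell by the test (log2 difference -1.02 ± 0.20 SE, edgeR adjusted p = 0.000921), with 3.16 to 11.8 CPM (median 4.14) in α7HMZ livers and 4.08 to 18.8 CPM (median 12.4) in WT livers, which overlapped. Sult1d1, which sulfates catecholamines in the mouse, was 0.11 ± 0.09 (SE, adjusted p = 0.378, edgeR), and Sult1c2 was -0.06 ± 0.19 (SE, adjusted p = 0.862, edgeR). Neither passed the test.

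Among the alpha-class glutathione transferases, which reduce lipid hydroperoxides, Gsta1 and Gsta2 fell and Gsta3 and Gsta4 did not pass. Gsta1 (chr9:78230656-78242684, plus strand) had 2.72 to 5.06 CPM (median 3.49) in fed α7HMZ livers and 5.50 to 8.46 CPM (median 6.32) in fed WT livers, a log2 fold change of -0.77 ± 0.12 (SE, adjusted p = 0.000114, edgeR). Gsta2 had 9.97 to 25.1 CPM (median 15.4) in α7HMZ and 21.5 to 33.9 CPM (median 25.5) in WT, a log2 fold change of -0.77 ± 0.14 (SE, adjusted p = 0.000302, edgeR). Only 13.7% of the 75-base windows of Gsta1 and 53.1% of those of Gsta2 are in no other gene, so the 2 values are not separate measurements. Gsta3 was -0.04 ± 0.08 (SE, adjusted p = 0.738, edgeR) and Gsta4, the enzyme for the lipid aldehyde 4-hydroxynonenal, was 0.13 ± 0.07 (SE, adjusted p = 0.169, edgeR).

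The pi-class genes Gstp1 and Gstp2, neighbours on chromosome 19 that share most of their sequence, rose together. Gstp1 (chr19:4035407-4037985, minus strand) had 2081, 1623 and 2098 CPM in α7HMZ livers at 10:30 and 995, 1016 and 1018 CPM in WT livers. At 20:30 it had 1832, 1723 and 1936 CPM in α7HMZ and 1201, 1415 and 2064 CPM in WT, where WT replicate 3 was above all 3 α7HMZ livers. Its log2 fold change was 0.63 ± 0.10 (SE, adjusted p = 6.01e-05, edgeR) in the average, 0.95 (SE 0.17) at 10:30, 0.71 (SE 0.17) at 13:30 and 0.23 (SE 0.16) at 20:30, where it did not pass. Gstp2 was 0.67 ± 0.09 (SE, adjusted p = 2.24e-05, edgeR) in the average. Windows found in no other gene were 42.3% for Gstp1 and 31.8% for Gstp2, so these too are not separate measurements.

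In the mu class, which conjugates epoxides and quinones, 1 of 7 genes rose and 2 fell. Gstm1 rose (log2 difference 0.33 ± 0.09 SE, edgeR adjusted p = 0.00933), Gstm4 fell (log2 difference -0.38 ± 0.07 SE, edgeR adjusted p = 0.000298) and Gstm6 fell (log2 difference -0.46 ± 0.09 SE, edgeR adjusted p = 0.000814). The log2 fold changes of Gstm2, Gstm3, Gstm5 and Gstm7 lay between -0.18 and 0.07 and did not pass. The theta class acts on small halogenated compounds. Gstt1 fell (log2 difference -0.47 ± 0.07 SE, edgeR adjusted p = 4.82e-05), with 155 to 218 CPM (median 177) in α7HMZ and 211 to 343 CPM (median 248) in WT livers, Gstt3 fell (log2 difference -0.62 ± 0.09 SE, edgeR adjusted p = 4.37e-05), and Gstt2 rose slightly (log2 difference 0.20 ± 0.07 SE, edgeR adjusted p = 0.0467).

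Gstk1, the glutathione transferase of mitochondria and peroxisomes, rose (log2 difference 0.51 ± 0.08 SE, edgeR adjusted p = 5.66e-05), with 103 to 176 CPM (median 134) in fed α7HMZ livers and 77.5 to 132 CPM (median 88.8) in fed WT livers. Gsto1, which reduces dehydroascorbate and methylated arsenic, fell (log2 difference -0.34 ± 0.07 SE, edgeR adjusted p = 0.00139), as did Gstz1, the maleylacetoacetate isomerase of tyrosine breakdown (log2 difference -0.24 ± 0.07 SE, edgeR adjusted p = 0.0109). Of the microsomal enzymes, Mgst1 fell (log2 difference -0.34 ± 0.09 SE, edgeR adjusted p = 0.0103) and Mgst3 did not pass (log2 difference -0.15 ± 0.08 SE, edgeR adjusted p = 0.186). The groups of Gstk1, Gsto1, Gstz1 and Mgst1 overlapped over the 9 livers of each genotype.

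Between times of day, the comparison within a flow cell is 20:30 against 13:30. At 20:30, in the dark phase, against 13:30 in the light phase, 15 members rose and 2 fell in WT livers, against 11.6% and 9.97% of all genes (21.6% in either direction), and the median log2 difference of the members was 0.33, against 0.02 over all genes. In α7HMZ livers 6 rose and 1 fell, against 3.16% and 2.05% of all genes (5.21% in either direction), with a median of 0.21, against 0.01. With the study's scaling 4 rose and 4 fell in α7HMZ livers (461 and 354 of all genes), and 9 rose and 2 fell in WT livers (1337 and 1231 of all genes). The sum of the hepatocyte markers was higher at 20:30 without overlap, with 104946 to 130231 CPM at 20:30 and 86494 to 97421 CPM at 13:30 in α7HMZ livers, and 132688 to 162475 CPM at 20:30 and 94839 to 112051 CPM at 13:30 in WT livers. Alb made up most of it. Mean Apoa1 in α7HMZ livers and mean Apob and Cps1 in WT livers were lower at 20:30, and the other means were higher. The sum of the sinusoidal endothelial markers was lower, with 183 to 329 CPM at 20:30 and 353 to 364 CPM at 13:30 in α7HMZ livers, and 275 to 314 CPM at 20:30 and 324 to 362 CPM at 13:30 in WT livers. Clec4g went the other way, with 61.4 to 72.7 CPM at 20:30 and 35.0 to 37.6 CPM at 13:30 in WT livers. Its α7HMZ means were 53.0 CPM at 20:30 and 50.1 CPM at 13:30. The means of the other listed endothelial genes were lower at 20:30. Kupffer cell markers were lower in WT livers (158 to 226 CPM at 20:30, 248 to 274 CPM at 13:30) and overlapped in α7HMZ livers. Bile duct cell markers were 71.7 to 92.2 CPM at 20:30 and 49.7 to 66.0 CPM at 13:30 in α7HMZ livers, and 41.9 to 71.1 CPM at 20:30 and 36.8 to 41.9 CPM at 13:30 in WT livers. Acinar markers were lower in α7HMZ livers (18.4 to 24.7 CPM at 20:30, 29.3 to 35.3 CPM at 13:30). That sum was carried by Cela1, while Ctrb1 had 1.87, 0 and 3.32 CPM at 20:30 and 0 CPM at 13:30. The part of these cell types in the results was not tested. The genotypes share no samples here, but the difference between the 2 counts was not tested. The genotype-by-time test of each gene takes in all 3 fed times, 10:30 included, and does not single out 20:30 against 13:30. The WT count rests on single livers, with 8 genes that rose without WT replicate 2 at 13:30, 6 without WT replicate 3 at 13:30 and 6 without WT replicate 3 at 20:30. In α7HMZ livers 3 rose without replicate 1 at 13:30.

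All 3 genes of the kappa, omega and zeta classes rose in WT livers at 20:30 against 13:30, as did both Ugt3a genes, Gstt1 and Gstt3, Gsta3 and Gsta4, Sult1a1 and Sult1d1, Ugt2b1, Ugt2b34 and Ugt2b38, and Mgst1. Gsto1 had 117, 115 and 142 CPM at 20:30 and 77.6, 63.2 and 67.2 CPM at 13:30 in WT livers, a log2 difference of 0.85 ± 0.13 (SE, adjusted p = 0.000341, edgeR). In α7HMZ livers it had 74.4, 73.4 and 77.3 CPM at 20:30 and 55.2, 61.6 and 64.5 CPM at 13:30, a log2 difference of 0.32 ± 0.12 (SE, adjusted p = 0.156, edgeR). Its WT livers at 20:30 were above every other fed liver, those at 10:30 being from the other flow cell.

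Sult1a1 rose at 20:30 against 13:30 in both genotypes, by 1.40 ± 0.16 (SE, adjusted p = 3.96e-05, edgeR) in α7HMZ livers and 0.82 ± 0.16 (SE, adjusted p = 0.00189, edgeR) in WT livers on the log2 scale. Gstk1 rose in WT livers, with 113, 112 and 132 CPM at 20:30 and 81.0, 83.4 and 77.5 CPM at 13:30 (log2 difference 0.57 ± 0.13 SE, edgeR adjusted p = 0.00643), and was 0.23 ± 0.13 (SE, adjusted p = 0.352, edgeR) in α7HMZ livers. Ugt1a9 rose at 20:30 in α7HMZ livers (log2 difference 0.75 ± 0.18 SE, edgeR adjusted p = 0.0196) and was 0.51 ± 0.18 (SE, adjusted p = 0.0553, edgeR) in WT livers.

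Gstm4 went the other way in both genotypes. It fell at 20:30 against 13:30, with a log2 difference of -0.69 ± 0.12 (SE, adjusted p = 0.00196, edgeR) in α7HMZ livers and -0.69 ± 0.12 (SE, adjusted p = 0.00105, edgeR) in WT livers. Its values at 10:30, 13:30 and 20:30 were 54.5 ± 4.82, 45.0 ± 2.84 and 27.8 ± 2.23 CPM in α7HMZ livers. WT livers had 71.2 ± 7.42, 58.9 ± 7.39 and 36.3 ± 3.14 CPM (mean ± SD, n = 3 each). Ugt1a5 fell in WT livers (log2 difference -0.89 ± 0.25 SE, edgeR adjusted p = 0.018) and was 0.44 ± 0.27 (SE, adjusted p = 0.393, edgeR) in α7HMZ livers. The WT call was lost without WT replicate 2 or 3 at 13:30 or without WT replicate 1 or 2 at 20:30.

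The test of whether the genotype difference changes with time of day passed for 2 of 42 members, Gstt2 and Ugt1a5, against 4.99% of all genes. Gstt2 had 69.2, 53.3 and 61.4 CPM in α7HMZ livers, against 37.8, 42.9 and 38.8 CPM in WT livers at 10:30. At 13:30 it had 73.4, 73.7 and 87.5 CPM in α7HMZ and 76.5, 66.6 and 68.5 CPM in WT, and at 20:30 57.2, 77.1 and 66.9 CPM in α7HMZ and 74.8, 70.1 and 82.6 CPM in WT. At 10:30 the 3 WT livers were under the 3 α7HMZ livers, and at the later times, on the other flow cell, the genotypes overlapped. The log2 fold changes were 0.63 (SE 0.13), 0.15 (SE 0.12) and -0.18 (SE 0.12) at 10:30, 13:30 and 20:30 (edgeR adjusted p of genotype by time = 0.0347).

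For Ugt1a5, α7HMZ livers had 5.57 ± 0.682, 4.61 ± 1.07 and 6.35 ± 1.58 CPM at 10:30, 13:30 and 20:30, where WT livers had 27.5 ± 8.99, 20.6 ± 5.43 and 11.01 ± 1.23 CPM (mean ± SD, n = 3 each). The WT livers spread most at 10:30, with 17.1, 32.2 and 33.2 CPM. Log2 fold changes were -2.30 (SE 0.27), -2.14 (SE 0.26) and -0.81 (SE 0.26) at the 3 times (edgeR adjusted p = 0.0418). Both calls are at the edge of the threshold. With the study's scaling the adjusted p was 0.0553 for Gstt2 and 0.0622 for Ugt1a5, and Ugt1a6a alone passed (edgeR adjusted p = 0.0474). The count of members called ranged between 0 and 6 when single libraries were left out, moving by over 1.5 times in 15 of the 18 cases, and it was 6 without α7HMZ replicate 1 at 10:30, the library with the most Rn45s. Ugt1a6a (edgeR adjusted p = 0.0541) and Gsto1 (edgeR adjusted p = 0.0643) came next and did not pass.

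**Figure D3:**
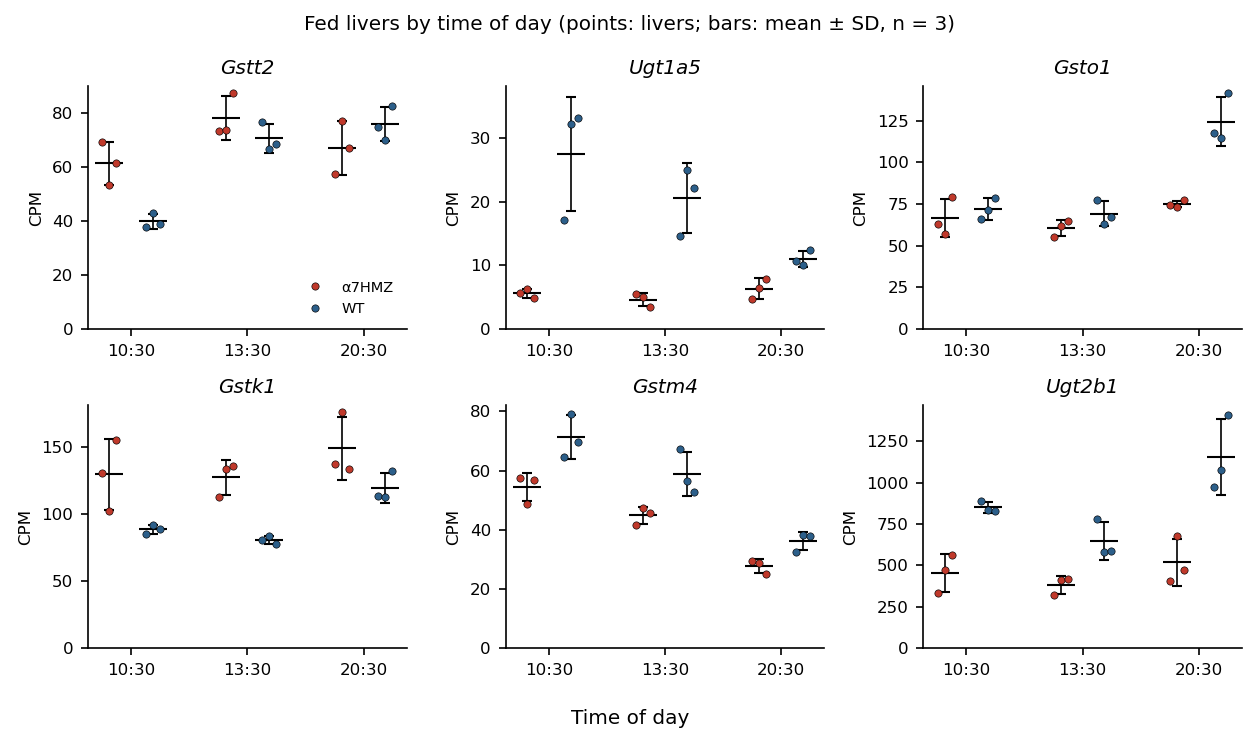
CPM in each fed liver are plotted on the y axis against time of day for Gstt2, Ugt1a5, Gsto1, Gstk1, Gstm4 and Ugt2b1, with α7HMZ in red left of WT in blue and bars for the mean and SD of 3 livers. Gstt2 is lower in WT than in α7HMZ livers at 10:30, Gsto1 is higher in WT livers at 20:30 than at 13:30, and Gstm4 is lower at 20:30 than at 13:30 in both genotypes, while the livers at 10:30 were on another flow cell.

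After a 12 h fast, glutathione transferase genes were 10 of the 15 members that changed in WT livers and 12 of the 16 in α7HMZ livers. They are 21 of all 42 members. Of these changed genes 8 fell in WT and 11 fell in α7HMZ livers. In WT livers, within a flow cell, 2 members rose and 13 fell, against 12.0% and 10.6% of all 13103 genes tested (22.7% in either direction), and the median log2 difference of the members was -0.29, against 0.00 over all genes. Of the 13 that fell, 5 are of the mu class, 2 of the alpha class, 1 of the theta class, 3 are Ugt1a genes, 1 is a Ugt2 gene and 1 is a sulfotransferase. In α7HMZ livers 1 member rose and 15 fell, against 6.68% and 5.90% of all genes (12.6% in either direction), with a median of -0.33, against -0.01. There 6 of the mu class, 3 of the alpha class and 2 of the theta class were among the 15. The fasted and the fed α7HMZ livers ran on different flow cells, and fasting and flow cell cannot be told apart in them. The summed erythroid markers were 41.6 to 49.0 CPM in fasted and 65.9 to 76.8 CPM in fed α7HMZ livers, and 75.2 to 85.4 CPM in fasted and 154 to 166 CPM in fed WT livers at 10:30. Further lists were without overlap in WT livers. Kupffer cell markers had 83.7 to 162 CPM in fasted and 241 to 327 CPM in fed livers, sinusoidal endothelial markers 184 to 288 CPM in fasted and 374 to 452 CPM in fed livers, stellate cell markers 210 to 269 CPM in fasted and 281 to 365 CPM in fed livers, and acinar markers 8.98 to 12.8 CPM in fasted and 43.0 to 45.0 CPM in fed livers, all lower when fasted. Among the stellate genes mean Des was higher when fasted (5.21 CPM in fasted, 4.47 CPM in fed livers). The acinar sum was carried by Cela1. The other acinar genes had 0 CPM in these fed livers and at most 0.534 CPM (Ctrb1) in the fasted ones. Higher when fasted were lymphocyte markers, with 2.85 to 3.52 CPM in fasted and 1.54 to 1.71 CPM in fed livers, and bile duct cell markers, with 60.8 to 70.5 CPM in fasted and 47.7 to 56.3 CPM in fed livers. The hepatocyte sums of WT livers overlapped. In α7HMZ livers hepatocyte markers had 85697 to 101249 CPM in fasted and 101664 to 122982 CPM in fed livers, and acinar markers 10.4 to 15.0 CPM in fasted and 30.7 to 47.7 CPM in fed livers, and the lymphocyte sums, at low levels, were higher when fasted. Cela1 again carried the acinar sum, and Alb made up most of the hepatocyte sum. Apob was higher when fasted, with 5564 to 6029 CPM in fasted and 3240 to 5344 CPM in fed α7HMZ livers. The means of the other listed hepatocyte genes were lower. The part of these cell types in the result was not tested. With the study's scaling 2 members rose and 17 fell in α7HMZ livers, where 838 of all genes rose and 799 fell.

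Gstm6 had 35.8, 40.9 and 55.6 CPM in fasted WT livers and 141, 146 and 139 CPM in fed WT livers at 10:30. No fasted liver reached a fed liver, and the log2 difference was -1.68 ± 0.15 (SE, adjusted p = 1.14e-05, edgeR). In α7HMZ livers it had 36.4, 40.5 and 42.7 CPM fasted and 86.7, 84.8 and 101 CPM fed, a log2 difference of -1.19 ± 0.15 (SE, adjusted p = 0.000216, edgeR). Its neighbour Gstm3 had 38.3, 39.9 and 59.4 CPM in fasted and 143, 158 and 155 CPM in fed WT livers (log2 difference -1.72 ± 0.18 SE, edgeR adjusted p = 4.12e-05), and 50.7, 56.3 and 61.8 CPM in fasted and 176, 119.9 and 126 CPM in fed α7HMZ livers (log2 difference -1.32 ± 0.18 SE, edgeR adjusted p = 0.00044). The groups did not overlap in either genotype.

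Gsta3, whose promoter with the TGACNNNGC match is printed above, had 611, 704 and 772 CPM in fasted WT livers and 1758, 1975 and 2006 CPM in fed WT livers, a log2 difference of -1.46 ± 0.16 (SE, adjusted p = 5.67e-05, edgeR). In α7HMZ livers it had 553, 603 and 485 CPM fasted and 1509, 1279.6 and 1921 CPM fed, a log2 difference of -1.52 ± 0.16 (SE, adjusted p = 6.15e-05, edgeR). Every fasted liver was under every fed liver of either genotype. Gstm2 fell too, with a log2 difference of -0.82 ± 0.13 (SE, adjusted p = 0.00119, edgeR) in α7HMZ livers and -1.09 ± 0.13 (SE, adjusted p = 0.000109, edgeR) in WT livers. Gsta4 was -1.04 ± 0.15 (SE, adjusted p = 0.000454, edgeR) in α7HMZ and -0.82 ± 0.15 (SE, adjusted p = 0.00156, edgeR) in WT livers, and Gstt1 was -0.88 ± 0.14 (SE, adjusted p = 0.00101, edgeR) in α7HMZ and -0.75 ± 0.14 (SE, adjusted p = 0.0021, edgeR) in WT livers, so both fell in each genotype.

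**Figure D4:**
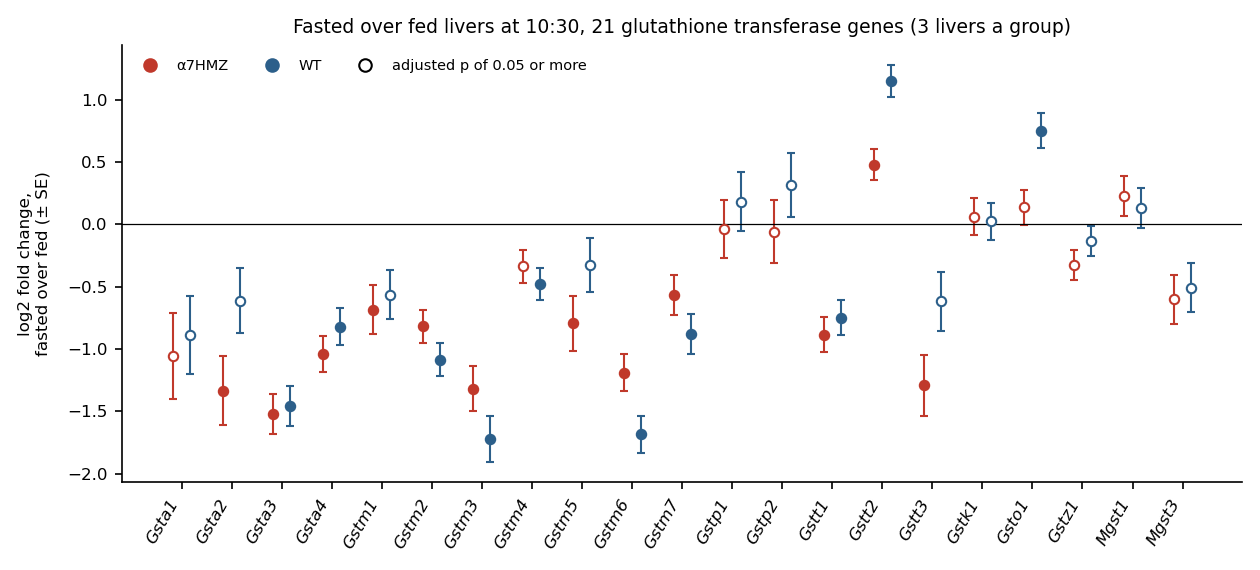
The log2 fold change of fasted over fed livers at 10:30 is plotted on the y axis with its SE for the 21 glutathione transferase genes, α7HMZ in red and WT in blue, with open circles for an adjusted p of 0.05 or more. All alpha and mu points lie under 0 in both genotypes, the lowest being -1.72 for Gstm3 in WT livers, and the Gstt2 points lie above 0 at 0.48 in α7HMZ and 1.15 in WT livers.

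In fasted WT livers 2 members rose, and both are glutathione transferases. Gstt2 had 83.1, 80.6 and 100.2 CPM in fasted WT livers and 37.8, 42.9 and 38.8 CPM in fed WT livers at 10:30, a log2 difference of 1.15 ± 0.13 (SE, adjusted p = 5.26e-05, edgeR). All fasted WT livers were above the fed WT livers at 10:30. In α7HMZ livers it had 89.5, 87.2 and 79.1 CPM fasted and 69.2, 53.3 and 61.4 CPM fed (log2 difference 0.48 ± 0.12 SE, edgeR adjusted p = 0.0223), the only rise there, and that call was lost without α7HMZ fed replicate 2, fasted replicate 1 or fasted replicate 2, and also when only the compared groups were fitted. Gsto1 had 106, 119.6 and 136 CPM in fasted and 66.1, 71.2 and 78.7 CPM in fed WT livers (log2 difference 0.75 ± 0.14 SE, edgeR adjusted p = 0.00214), and was 0.14 ± 0.14 (SE, adjusted p = 0.575, edgeR) in α7HMZ livers. Whether a fasting difference differs between the genotypes was not tested.

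In α7HMZ livers 1 of 15 glucuronidation genes and 3 of 6 sulfation genes fell with fasting, where 5.90% of all genes fell. In WT livers 4 of 15 glucuronidation genes and 1 of 6 sulfation genes fell, where 10.6% of all genes fell, and none of these genes rose in either genotype. In WT livers Ugt1a5 fell (log2 difference -1.40 ± 0.23 SE, edgeR adjusted p = 0.00089), as did Ugt1a6a (log2 difference -0.62 ± 0.14 SE, edgeR adjusted p = 0.00707), Ugt1a6b (log2 difference -0.49 ± 0.16 SE, edgeR adjusted p = 0.0427), Ugt2a3 (log2 difference -0.65 ± 0.14 SE, edgeR adjusted p = 0.00478) and Sult1b1 (log2 difference -0.72 ± 0.22 SE, edgeR adjusted p = 0.0337). In α7HMZ livers Sult2a7 fell, with 2.83, 2.17 and 2.17 CPM fasted and 15.6, 6.24 and 11.8 CPM fed (log2 difference -2.23 ± 0.36 SE, edgeR adjusted p = 0.00111), and its fasted livers overlapped the fasted WT livers, which had 2.55, 0.830 and 1.42 CPM. Sult1b1 (log2 difference -1.31 ± 0.26 SE, edgeR adjusted p = 0.00413), Sult1d1 (log2 difference -0.96 ± 0.21 SE, edgeR adjusted p = 0.0095) and Ugt2a3 (log2 difference -0.60 ± 0.14 SE, edgeR adjusted p = 0.0115) fell there too. The Ugt3a genes passed in neither genotype, with log2 differences of 0.35 (SE 0.15) in α7HMZ and 0.11 (SE 0.15) in WT livers for Ugt3a1 and -0.07 (SE 0.14) in α7HMZ and -0.04 (SE 0.14) in WT livers for Ugt3a2.

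Between the genotypes in fasted livers, 1 member rose and 11 fell, against 6.90% and 8.65% of all genes (15.5% in either direction), with a median log2 fold change of -0.16, against 0.00. Flow cell and genotype cannot be told apart in this comparison. With the study's scaling 3 rose and 11 fell, where 1013 of all genes rose and 1097 fell. Hepatocyte markers summed to 85697 to 101249 CPM in fasted α7HMZ and 137732 to 165083 CPM in fasted WT livers, erythroid markers to 41.6 to 49.0 CPM in α7HMZ and 75.2 to 85.4 CPM in WT livers, and sinusoidal endothelial markers to 308 to 370 CPM in α7HMZ and 184 to 288 CPM in WT livers, each without overlap. Kupffer cell markers summed to 718 CPM in α7HMZ fasted replicate 3 and to 141 and 158 CPM in the other 2, against 83.7 to 162 CPM in fasted WT livers, and their part was not tested. Without that library 12 members fell. Sult1a1 had 73.7, 51.6 and 55.1 CPM in fasted α7HMZ livers and 418, 339 and 393 CPM in fasted WT livers (log2 difference -2.68 ± 0.20 SE, edgeR adjusted p = 1.48e-06). Sult1b1 had 4.14, 2.40 and 5.30 CPM in α7HMZ and 30.5, 27.6 and 22.5 CPM in WT (log2 difference -2.80 ± 0.25 SE, edgeR adjusted p = 8.74e-06), and Ugt3a2 had 135 ± 22.6 CPM in α7HMZ and 378 ± 35.1 CPM in WT (mean ± SD, n = 3 each), a difference that passed (log2 difference -1.49 ± 0.14 SE, edgeR adjusted p = 1.36e-05). None of these 3 pairs of groups overlapped.

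The other members that fell in fasted α7HMZ livers were Ugt1a5, Ugt3a1, Sult1c2, Sult1d1, Gsta2, Gsto1, Gstt1 and Gstt3, with log2 fold changes from -1.64 for Gsta2 to -0.57 for Gstt1. Gstk1 rose, with 151, 136 and 118 CPM in α7HMZ and 85.0, 82.9 and 102 CPM in WT (log2 difference 0.58 ± 0.15 SE, edgeR adjusted p = 0.0189), and that call was lost without WT fasted replicate 1, WT fasted replicate 2 or α7HMZ fasted replicate 1, while 3 members rose without WT fasted replicate 3. Sult2a7 did not pass when fasted (log2 difference 0.55 ± 0.38 SE, edgeR adjusted p = 0.366), nor did Ugt1a9 (log2 difference 0.30 ± 0.28 SE, edgeR adjusted p = 0.528), with 42.3, 46.4 and 47.3 CPM in fasted α7HMZ livers and 45.5, 46.1 and 18.6 CPM in fasted WT livers.

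The related lists that follow are from the fed average and are read against the 13.3% of all genes that rose and the 13.2% that fell (median log2 fold change 0.03). Of 8 genes of UDP-glucuronic acid supply 1 rose and 2 fell (median -0.01), and Ugdh, which makes UDP-glucuronic acid, was 0.15 ± 0.09 (SE, adjusted p = 0.237, edgeR). Pgm2, a sugar phosphate mutase, fell (log2 difference -0.23 ± 0.05 SE, edgeR adjusted p = 0.0035). Of 8 genes of PAPS supply 2 rose and 2 fell (median 0.09). Slc26a1, a hepatic sulfate carrier, fell (log2 difference -0.64 ± 0.07 SE, edgeR adjusted p = 1.17e-06) and the PAPS synthase genes Papss1 (log2 difference 0.50 ± 0.10 SE, edgeR adjusted p = 0.00121) and Papss2 (log2 difference 0.30 ± 0.08 SE, edgeR adjusted p = 0.00637) rose. Of 15 tested genes of glutathione supply 3 rose and 2 fell (median -0.02), among them glutathione synthetase Gss (log2 difference -0.40 ± 0.06 SE, edgeR adjusted p = 7.45e-05) and the adenosylhomocysteine hydrolase gene Ahcy (log2 difference -0.67 ± 0.09 SE, edgeR adjusted p = 9.14e-06). Gclc, the rate-limiting ligase subunit, was 0.22 ± 0.15 (SE, adjusted p = 0.333, edgeR).

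Other conjugating enzymes outside the name rule were called in both directions, with 5 of 19 higher and 10 lower in α7HMZ livers (26.3% and 52.6%, against 13.3% and 13.2% of all genes, median -0.37). The thiopurine methyltransferase gene Tpmt fell (log2 difference -1.44 ± 0.08 SE, edgeR adjusted p = 1.01e-10), as did the glycine conjugating enzyme Glyat (log2 difference -0.81 ± 0.08 SE, edgeR adjusted p = 2.35e-07). Of 10 transporters of conjugates 2 rose and 6 fell (median -0.54), from the organic anion carriers Slc22a7 (log2 difference -3.55 ± 0.17 SE, edgeR adjusted p = 1.33e-11) and Slco2b1 (log2 difference -1.52 ± 0.07 SE, edgeR adjusted p = 6.95e-12) to Slco1a4, which rose (log2 difference 0.99 ± 0.10 SE, edgeR adjusted p = 3.26e-07). Of 7 genes that split conjugates or process mercapturates 1 rose and 2 fell (median 0.14), with Acy1 at -0.90 ± 0.10 (SE, adjusted p = 9.88e-07, edgeR) and Acy3 at -0.60 ± 0.06 (SE, adjusted p = 4.21e-07, edgeR). Of 10 tested genes related to glutathione transferases but outside the rule 3 rose and none fell (median 0.23), and Ptges, a prostaglandin E synthase, rose the most (log2 difference 3.28 ± 0.36 SE, edgeR adjusted p = 1.12e-06).

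Among 23 regulators 2 rose and 5 fell (8.70% and 21.7%, against 13.3% and 13.2% of all genes, median 0.04), so the share called, 7 of 23, is near the 26.5% of all genes. Nfe2l2, which encodes NRF2, was 0.19 ± 0.08 (SE, adjusted p = 0.0692, edgeR), its inhibitor Keap1 was -0.09 ± 0.06 (SE, adjusted p = 0.281, edgeR) and the PXR gene Nr1i2 was -0.12 ± 0.09 (SE, adjusted p = 0.337, edgeR), and none of these passed. The LXRα gene Nr1h3 fell (log2 difference -0.48 ± 0.06 SE, edgeR adjusted p = 1.21e-05), as did the CAR gene Nr1i3 (-3.72 on the log2 scale). Of 11 tested targets of the receptors that are not conjugating enzymes 1 rose and 5 fell (9.09% and 45.5%, median -0.19). Cyp2b10, a CAR target, fell (log2 difference -2.21 ± 0.24 SE, edgeR adjusted p = 1.06e-06), Srxn1, an NRF2 target, fell (log2 difference -0.67 ± 0.09 SE, edgeR adjusted p = 1.06e-05), and Nqo1, another NRF2 target, was -0.17 ± 0.09 (SE, adjusted p = 0.207, edgeR). Cyp4a14, a PPARα target, rose (log2 difference 2.26 ± 0.22 SE, edgeR adjusted p = 3.71e-07).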

How the data were processed

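The 42 members, the related lists and the rules for naming genes were chosen with earlier results of these data known, and the motifs after the data were seen. The deposited values are raw counts per gene, which the authors made by aligning 75-base single reads (TruSeq v2, no strand) with TopHat2 2.1.1 to mm10, keeping 1 alignment per read and counting with HTSeq 0.6.1. Genes that overlap on opposite strands are not separated by these counts. The handling of reads in shared Ugt1a exons is not given in the sources used here, and the deposited FPKM were not used.

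Counts went unchanged into edgeR 4.0.16 under R 4.3.3. Low genes were removed with filterByExpr, libraries were scaled with TMM, and quasi-likelihood tests with an adjusted p threshold of 0.05 were made in a fit of the 18 fed libraries (13334 genes) and a fit of the 12 libraries at 10:30 (13103 genes). All 42 members passed the filter. The SE was taken as the absolute log2 fold change over the root of the F statistic. The script was tested on simulated data. Replicates differed by a chi-square of 11.03 per degree of freedom or more, so none was a repeat of another.

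Genes with values in full were the members past the threshold in the fed average with a mean log2 CPM of 1 or more and no overlap (8 per direction at most), the 4 with the smallest p of genotype by time, 4 per direction in WT fasting, 3 per direction in WT 20:30 against 13:30 and in fasted genotypes, and up to 3 per related list, of which some are not reported here. Other members follow by family. Ugdh, Gclc, Nfe2l2, Keap1, Nr1i2 and Nqo1 were added after their values were seen, as were second comparisons of a named member. The alternatives were DESeq2 1.42.0, scaling by upper quartile or by relative log expression, offsets for GC content with full quantile scaling (the scaling of the study's methods, there used with DESeq2), no filter, other fits, a replicate block and leaving out each library.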

Additional observations from a re-analysis of the deposited data

Results flagged for a closer look

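For 2 members the genotype difference itself differed between times of day by edgeR's genotype-by-time test. They are Gstt2 (adjusted p = 0.0347), with log2 fold changes of α7HMZ over WT of 0.63, 0.15 and -0.18 at 10:30, 13:30 and 20:30, and Ugt1a5 (adjusted p = 0.0418), with -2.30, -2.14 and -0.81. The first passed in 13 and the second in 11 of 26 other settings. The test passed for 4.99% of all genes, and 2 of 42 members is near that share.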

How the results depend on the processing

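No result reversed in any alternative, and 521 of 563 values of named members kept their side of the threshold. GC content with full quantile offsets, the scaling of the study's methods, moved the counts most: 13 members rose in the fed average, 10 at 13:30, 9 at 20:30 and 9 in WT livers at 20:30 against 13:30, 4 fell in α7HMZ livers at 20:30 against 13:30, 2 rose in fasted against fed α7HMZ livers, 3 rose between fasted genotypes, and 1, Ugt1a6a, passed genotype by time. Between fasted genotypes 2 rose with upper quartile factors, DESeq2, no filter on low counts, all 24 libraries in 1 fit or the replicate block. DESeq2 called 5 members in genotype by time, and none rose in fasted α7HMZ livers when only the compared groups were fitted. Upper quartile factors raised the share of called genes that were higher to 60.2% in the fed average, 60.1% at 13:30 and 54.0% at 20:30, against 50.2%, 48.4% and 43.3% with TMM, and the member counts of these 3 comparisons stayed within 1.5 times. When 4 fed libraries that stood out in Rn45s, in Krt19 or in the pancreas gene Ctrb1 were dropped together, a choice made after seeing the data, 8 members fell at 20:30 and 3 passed genotype by time.

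With single libraries left out, 6 to 9 members rose and 18 to 19 fell in the fed average, 5 to 7 and 9 to 15 at 10:30, 4 to 6 and 7 to 11 at 13:30, and 2 to 5 and 9 to 13 at 20:30, and 0 to 6 passed genotype by time. In WT livers at 20:30 against 13:30 the counts were 6 to 13 and 1 to 2, and in α7HMZ livers 3 to 5 and 1 to 1. Fasted against fed α7HMZ livers gave 0 to 1 and 13 to 16, WT livers 2 to 3 and 10 to 15, and fasted genotypes 0 to 3 and 9 to 12. The cause of these moves was not tested beyond the smaller number of libraries.

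The labels number the replicates 1 to 3 in each group. Deviations of same-numbered libraries correlated between -0.167 and 0.0956 and in 0 of 24 cases over 0.1, so no pairing by number was seen. These correlations cannot exclude that same-numbered mice shared a litter or a place in the harvest. With a replicate block 1 member passed genotype by time, 7 rose and 18 fell in the fed average, and no other count moved by over 1.5 times except the fasted genotypes above. Depth limits Sult2a7, Gsta1 and Sult1c2, which rest on few counts per library.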
